A study of Mus musculus with 24 samples.

Results

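H3K4m3 in mouse liver was compared gene by gene with H3K4m3 in brain, heart and kidney, to describe which enzymes, transporters, receptors, channels and signalling genes carried more or less of the mark in liver. The liver libraries were the 2 columns of the authors' normalized gene table that name liver, 1 from frozen tissue and 1 from formalin-fixed, paraffin-embedded (FFPE) tissue, of 8 columns in all. They were set against the 6 columns of the other organs with preservation type held as a covariate. Of 27179 genes in the table, 25680 had a mean log2 level of at least 0 and were tested. Genes of secreted plasma proteins and of liver transcription factors were counted but not described singly, apart from markers used to check the label, so that the account covers the other functions and the genes that were lower in liver.

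The tissue came from mouse organs that were either flash frozen, or fixed in 10% formalin and embedded in paraffin. Frozen tissue was crosslinked after coring and FFPE tissue was deparaffinised and extracted with heat, and both were sheared in the PIXUL instrument and precipitated with an antibody against H3K4m3, histone H3 trimethylated at lysine 4. The labels describe 3 liver samples and 9 samples of the other organs with this antibody, and the study's design set frozen beside FFPE tissue over the 4 organs. The groups were frozen liver and FFPE liver, against frozen and FFPE brain, frozen and FFPE heart, and frozen and FFPE kidney, with 1 library each. The sources used here give no strain, age or sex of the mice, and do not say whether an FFPE column holds 1 or both FFPE samples of its organ.

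H3K4m3 sits at the start sites of genes that are transcribed or ready to be, and is broad at genes that define a cell type. Most of the mass of the liver is made of hepatocytes, which make bile acids, detoxify ammonia as urea, release glucose, oxidise and export fat, break down amino acids and modify foreign compounds. Sinusoidal endothelial cells, Kupffer cells (the resident macrophages), stellate cells and bile duct cells make up the rest.

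Levels below are log2 CPM, where CPM is a gene's reads scaled to a common library size, and differences are liver minus the mean of brain, heart and kidney on that log2 scale, with the standard error (SE) from limma's linear model. A gene passed where its Benjamini-Hochberg adjusted p, over all tested genes, was under 0.05, and "higher", "lower", "rose" and "fell" are used of genes that passed. Depth was 2976029 reads in frozen and 3800135 in FFPE liver, against 1792394 to 5275085 reads in the other libraries. Whether the libraries derive from different mice is not in the labels, so a p-value reflects the scatter among these libraries alone and may be a technical measure. In whole tissue, fewer cells that carry the mark and less of the mark per cell cannot be told apart. The sources used here do not state where in a gene reads were counted, and levels are not compared between genes. Where 2 genes overlap or are near-identical copies, as in the Cyp2d, Cyp2c, Ugt2b, Ces and Gst families, the division of reads between them is uncertain.

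The liver label was checked first on Cyp8b1, Apoa2, Foxa2 and Onecut1. Cyp8b1, the sterol 12-alpha-hydroxylase of bile acid synthesis (chr9:121914356-121916305), had 8.88 in frozen and 6.83 in FFPE liver, against 0.90 to 4.19 (median 3.23) in the other libraries. Both liver libraries lay above all others, and the difference was 4.91 ± 0.57, adjusted p = 0.000264, a 30.0-fold higher level and the largest positive difference of all tested genes. Apoa2, an apolipoprotein of high-density lipoprotein, had 7.55 in frozen and 5.54 in FFPE liver, against 1.34 to 2.85 (median 2.02) in the other libraries, and a difference of 4.46 ± 0.57, adjusted p = 0.000395. Foxa2, a forkhead factor of endoderm, had 7.45 in frozen and 6.50 in FFPE liver, against 1.98 to 4.37 (median 3.50) in the other libraries. Onecut1, a hepatocyte factor also called Hnf6, had 7.71 in frozen and 6.87 in FFPE liver, against 3.72 to 5.40 (median 4.00) in the other libraries. For all 4 markers the liver libraries stood apart from the rest, as the plot of levels by library shows.

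**Figure D1:**
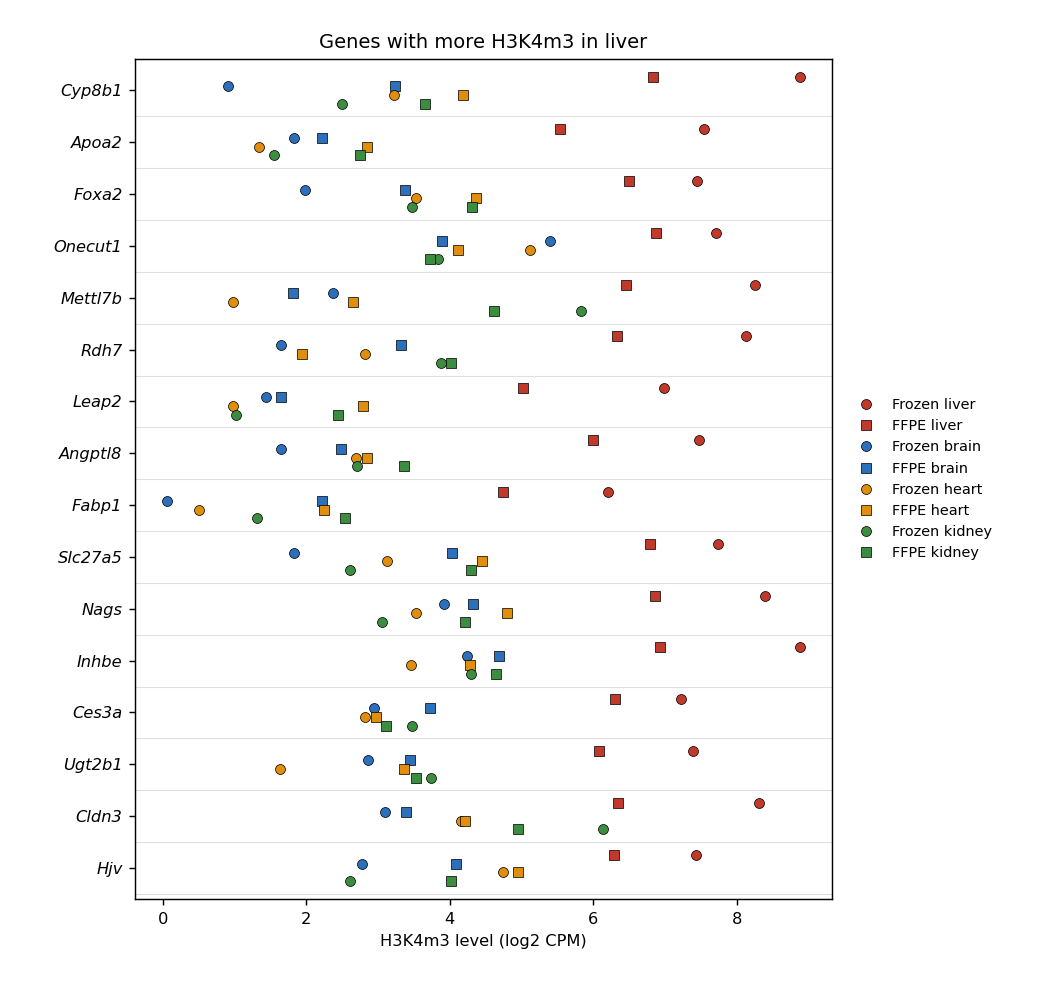
H3K4m3 level (log2 CPM) of 16 genes that were higher in liver, 1 point per library, with circles for frozen and squares for FFPE tissue and colours for organs. Both liver points lie to the right of all 6 points of the other organs for every gene shown, and the frozen liver point lies to the right of the FFPE liver point.

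The promoters of the 3 genes with the largest positive and the 2 with the largest negative differences outside the set-aside lists, among genes with a promoter entry, both liver libraries beyond all others and a log2 level of at least 2 in the highest organ, are shown because the mark is deposited around the start site. They are RefSeq promoters of build GRCm38.p6, 250 bases before to 50 bases after the start, written 5′ to 3′ on the gene's strand. Capitals mark exact matches, on either strand, to the motifs searched, and no 2 matches overlapped. The forkhead motif searched was TGTTTAC. The HNF4 motif was CAAAGTCCA and the C/EBP motif was TTGCGCAA. The TATA box was searched as TATAAA, and the HNF1 palindrome was searched too. Cyp8b1 lies at chr9:121916256-121916555 on the minus strand, Mettl7b at chr10:128960939-128961238 on the minus strand and Rdh7 at chr10:127889198-127889497 on the minus strand. Tmem35a lies at chrX:134294975-134295274 on the plus strand and Olfr361 at chr2:37085697-37085996 on the minus strand. Ckb, at chr12:111672289-111672588 on the minus strand, was added after its values were seen, as a gene that was lower in liver than in each other organ.
Cyp8b1: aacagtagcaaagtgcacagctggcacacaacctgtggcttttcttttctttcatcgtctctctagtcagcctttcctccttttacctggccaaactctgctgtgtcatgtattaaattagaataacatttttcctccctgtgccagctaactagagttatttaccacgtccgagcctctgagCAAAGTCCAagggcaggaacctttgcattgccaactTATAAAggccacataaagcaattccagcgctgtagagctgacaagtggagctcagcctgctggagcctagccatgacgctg
Mettl7b: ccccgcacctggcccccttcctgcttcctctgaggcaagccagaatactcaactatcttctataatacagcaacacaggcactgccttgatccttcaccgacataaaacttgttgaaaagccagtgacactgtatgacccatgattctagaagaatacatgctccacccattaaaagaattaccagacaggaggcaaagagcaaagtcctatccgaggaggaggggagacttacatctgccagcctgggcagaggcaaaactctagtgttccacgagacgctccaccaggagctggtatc
Rdh7: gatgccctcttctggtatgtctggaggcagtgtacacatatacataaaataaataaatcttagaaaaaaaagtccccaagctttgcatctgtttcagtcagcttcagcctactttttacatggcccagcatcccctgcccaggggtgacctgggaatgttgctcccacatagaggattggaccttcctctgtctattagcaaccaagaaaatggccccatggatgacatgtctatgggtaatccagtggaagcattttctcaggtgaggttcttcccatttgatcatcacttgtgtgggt
Tmem35a: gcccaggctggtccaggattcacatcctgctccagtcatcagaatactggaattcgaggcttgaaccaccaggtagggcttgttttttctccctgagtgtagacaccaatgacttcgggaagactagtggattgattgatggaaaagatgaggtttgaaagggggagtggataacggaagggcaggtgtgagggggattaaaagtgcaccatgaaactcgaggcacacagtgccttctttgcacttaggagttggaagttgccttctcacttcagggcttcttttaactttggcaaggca
Olfr361: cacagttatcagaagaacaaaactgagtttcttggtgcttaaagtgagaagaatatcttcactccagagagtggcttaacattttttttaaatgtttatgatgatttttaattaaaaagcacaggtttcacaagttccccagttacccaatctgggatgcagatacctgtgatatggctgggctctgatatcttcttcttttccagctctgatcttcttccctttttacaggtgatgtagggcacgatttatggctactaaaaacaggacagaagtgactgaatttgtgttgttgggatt
Ckb: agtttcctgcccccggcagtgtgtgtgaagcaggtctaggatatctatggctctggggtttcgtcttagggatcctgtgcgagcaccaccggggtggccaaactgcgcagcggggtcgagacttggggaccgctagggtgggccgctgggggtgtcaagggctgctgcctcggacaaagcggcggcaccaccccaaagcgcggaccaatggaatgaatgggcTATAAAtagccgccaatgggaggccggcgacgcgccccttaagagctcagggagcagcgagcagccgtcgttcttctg

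The Cyp8b1 promoter held an HNF4 match at base 184 and a TATA box match at base 220 of the window, and the Ckb promoter a TATA box match at base 223. The other 4 promoters held none of these motifs. Over the promoters of 18321 tested genes, 0.442% held the HNF4 letters, 13.0% TATAAA, 3.02% the forkhead letters and 0.229% the C/EBP letters, and none held the HNF1 palindrome. The Ckb promoter had 22 CpG dinucleotides, against 5 in Cyp8b1, 5 in Mettl7b, 4 in Tmem35a, 1 in Olfr361 and 0 in Rdh7. Promoter sequences were at hand for 988 of the 1317 genes higher in liver and 876 of the 1242 genes lower in liver, under the 80% needed for a comparison of the sets, so CpG content and motifs were not compared between them.

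In all, 2559 genes passed, 9.96% of those tested. Liver was above the mean of brain, heart and kidney at 1317 genes (5.13%) and below it at 1242 genes (4.84%). Both liver libraries lay above all 6 others at 828 of the higher genes and below all 6 at 643 of the lower genes, where 5.12% and 4.44% of all tested genes had such an order. The set-aside plasma protein and transcription factor lists held 115 of the higher genes and 0 of the lower ones. Tested against each organ singly, 316 genes (1.23%) were higher in liver than in brain, than in heart and than in kidney, and 94 genes (0.366%) were lower than in each. Against kidney alone, 466 genes were higher (1.81%) and 386 lower (1.5%). Against heart alone, 891 were higher (3.47%) and 844 lower (3.29%), and against brain alone 1580 were higher (6.15%) and 1726 lower (6.72%). These 3 comparisons share the liver libraries.

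The other organs also stood in an order at these genes. Among the 1317 higher genes the organ next to liver was kidney at 52.4%, heart at 29.5% and brain at 18.1%. Among the 1242 lower genes the organ with the highest level was brain at 61.0%, heart at 25.4% and kidney at 13.6%, against 34.7%, 31.1% and 34.2% of all tested genes. A gene can thus be lower in liver than the mean because 1 other organ is high, and 7.57% of the lower genes were lower than each organ, against 24.0% of the higher genes that were higher than each.

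Most differences were larger in frozen than in FFPE tissue. The median difference of the higher genes was 1.67 between frozen libraries and 0.86 between FFPE libraries, and that of the lower genes was -1.51 between frozen and -0.77 between FFPE libraries. The frozen difference was the larger at 1250 of the 1317 higher genes and at 1056 of the 1242 lower genes, and the sign was the same in frozen and FFPE tissue at all 2559 genes. Without the frozen liver library 184 genes were higher and 280 lower, and without the FFPE liver library 2254 were higher and 2578 lower. Without frozen brain, frozen heart or frozen kidney, 827 to 848 genes were higher and 597 to 672 lower. With limma's intensity trend turned off no gene passed, at 4715 genes with an unadjusted p under 0.05, so every call below rests on the pooling of variance over genes of like level. Calls lost when 1 library was left out are named below for some genes only. Of the 154 genes named here that passed, 72 also passed in all 8 fits that left out 1 library, and the other 82 did not pass without frozen liver.

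**Figure D2:**
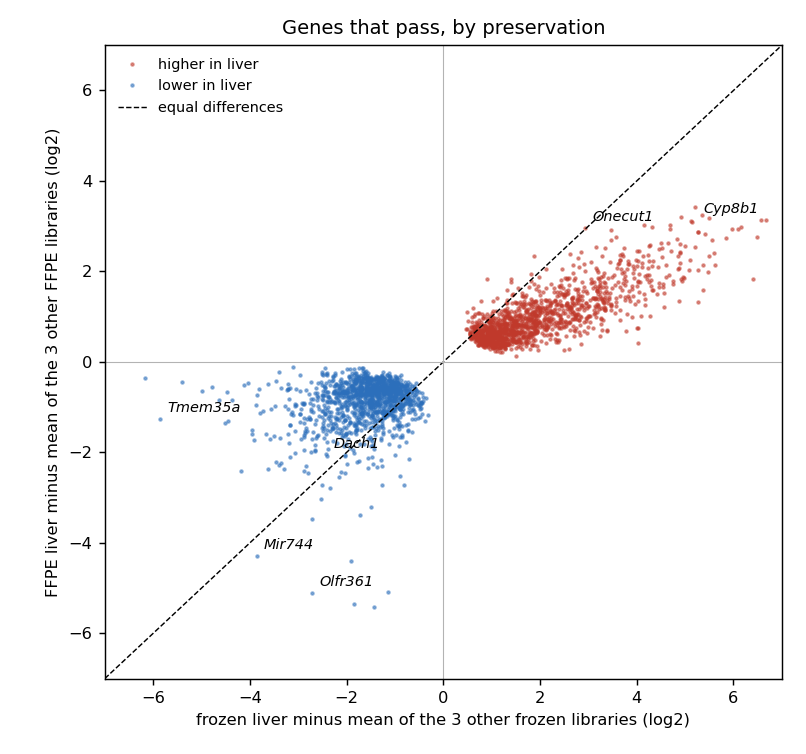
For each of the 2559 genes that passed, the frozen liver level minus the mean of the 3 other frozen libraries (x axis, log2) against the same difference in FFPE tissue (y axis, log2), red for higher and blue for lower in liver. Most points lie between the x axis and the dashed line of equal differences. Onecut1 and Dach1 lie near that line, and Tmem35a, Olfr361 and Mir744 are genes with few or no reads in liver.

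The largest differences outside the set-aside lists fell on enzymes and secreted regulators of lipid, retinoid, purine and appetite pathways. Mettl7b, a methyltransferase of the endoplasmic reticulum and lipid droplets, had 8.26 in frozen and 6.45 in FFPE liver, against 0.98 to 5.83 (median 2.51) in the other libraries, and its difference was 4.31 ± 0.50, adjusted p = 0.000252. Its nearest organ was kidney, from which liver differed by 2.13 ± 0.61, adjusted p = 0.0778. Rdh7, a retinol and steroid dehydrogenase, had 8.12 in frozen and 6.33 in FFPE liver, against 1.64 to 4.02 (median 3.07) in the other libraries, and a difference of 4.29 ± 0.50, adjusted p = 0.000252. Its neighbours Rdh16f2 and Sdr9c7 on chromosome 10, members of the same enzyme superfamily, were higher as well, by 2.60 and 2.32. Leap2, a secreted peptide that blocks the ghrelin receptor, had 6.99 in frozen and 5.03 in FFPE liver, against 0.98 to 2.79 (median 1.54) in the other libraries, and a difference of 4.29 ± 0.63, adjusted p = 0.000899. Urah, the hydroxyisourate hydrolase that follows uricase, had 6.92 in frozen and 5.01 in FFPE liver, against 0.98 to 2.78 (median 1.60) in the other libraries, and a difference of 4.12 ± 0.51, adjusted p = 0.00033. Angptl8, a feeding-induced secreted inhibitor of lipoprotein lipase, had 7.47 in frozen and 6.0 in FFPE liver, against 1.64 to 3.36 (median 2.70) in the other libraries, and a difference of 4.11 ± 0.44, adjusted p = 0.000197. Both liver libraries lay above all 6 others in each of these genes, and the 2 groups were closest at Mettl7b.

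Fabp1, the liver fatty acid binding protein, had 6.21 in frozen and 4.74 in FFPE liver, against 0.06 to 2.54 (median 1.76) in the other libraries, and Slc27a5, the fatty acid transport protein that activates bile acids, had 7.73 in frozen and 6.80 in FFPE liver, against 1.82 to 4.45 (median 3.58) in the other libraries. Their differences were 4.00 ± 0.64, adjusted p = 0.00158 and 3.88 ± 0.45, adjusted p = 0.000266. A further 3 cytochromes of the Cyp2d cluster on chromosome 15 were also among the 15 largest, Cyp2d9 at 4.13, Cyp2d26 at 3.86 and Cyp2d10 at 3.77. Angptl8 lies within Dock6, which was itself higher by 0.79, and Mettl7b overlaps Itga7, higher by 0.90, so some reads may be shared. Leap2, Fabp1, Rdh16f2, Sdr9c7, Dock6 and Itga7 lost their calls when frozen liver was left out.

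Bile acid synthesis and the traffic of small molecules across the hepatocyte membrane rose in most of the members tested. Of 19 bile acid synthesis genes tested, 14 rose, none fell and the median difference was 1.58, beside -0.01 for all tested genes. Baat, which joins bile acids to taurine or glycine, had 6.84 in frozen and 5.83 in FFPE liver, against 2.26 to 3.92 (median 3.25) in the other libraries. Slc27a2, a very long chain acyl-CoA synthetase that also acts on bile acid precursors, had 7.82 in frozen and 6.13 in FFPE liver, against 3.67 to 5.96 (median 4.29) in the other libraries, and here frozen kidney came close to FFPE liver. Their differences were 3.14 ± 0.42, adjusted p = 0.000505 and 2.37 ± 0.29, adjusted p = 0.000322. Cyp46a1, the cholesterol 24-hydroxylase of brain, had 3.58 in frozen and 4.38 in FFPE liver, against 3.87 to 5.12 (median 4.92) in the other libraries, a difference of -0.74 that did not pass (adjusted p = 0.172).

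Of 34 transporters of the hepatocyte membrane, 20 rose and none fell, with a median of 1.24. Slc17a2, a sodium-phosphate family transporter, had 7.11 in frozen and 5.97 in FFPE liver, against 3.09 to 4.50 (median 4.02) in the other libraries, and a difference of 2.64 ± 0.38, adjusted p = 0.000827. Aqp9, the glycerol channel of the sinusoidal membrane, had 6.55 in frozen and 5.50 in FFPE liver, against 2.78 to 4.33 (median 3.65) in the other libraries, and a difference of 2.42 ± 0.39, adjusted p = 0.00169. Slc26a1, a sulfate and oxalate exchanger, differed by 2.12 ± 0.28, adjusted p = 0.000516, and Slc38a3, a glutamine transporter, by 1.64 ± 0.26, adjusted p = 0.00149. The efflux pump Abcg2 had 4.57 in frozen and 4.85 in FFPE liver, against 4.44 to 5.69 (median 4.65) in the other libraries, with a difference of -0.12 that did not pass. Among the wider Slc22 and Slco families of organic ion transporters, 8 of 41 rose and 5 fell. Slco1a1, an organic anion importer, had 7.24 in frozen and 5.47 in FFPE liver, against 2.57 to 4.74 (median 4.44) in the other libraries, and a difference of 2.30 ± 0.49, adjusted p = 0.00813. Among those that fell was Slc22a12, the urate exchanger of the renal tubule, with 3.21 in frozen and 4.06 in FFPE liver, against 6.84 and 6.23 in frozen and FFPE kidney. Another was Slc22a17, a receptor for lipocalin 2, with 4.73 in frozen and 5.04 in FFPE liver, against 5.96 to 7.39 (median 6.34) in the other libraries. Their differences were -1.60 ± 0.30, adjusted p = 0.00395 and -1.60 ± 0.21, adjusted p = 0.000479.

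**Figure D3:**
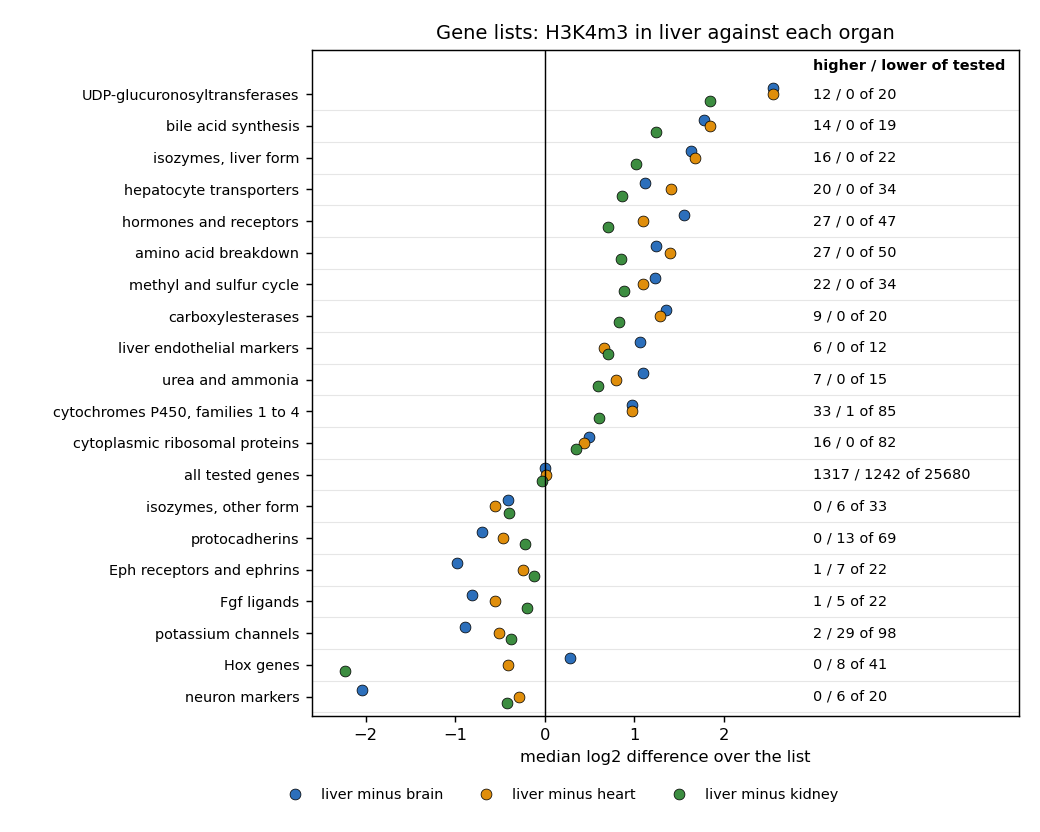
Median log2 difference of liver against brain, heart and kidney over the tested members of 19 gene lists and over all tested genes (points), with the number of members higher and lower than the mean of the 3 organs at the right. Lists of hepatocyte functions lie to the right of 0 against all 3 organs, with kidney nearest to 0 in all but the liver endothelial markers, and lists of channels, guidance and patterning genes lie mostly to the left, the Hox genes furthest against kidney and the neuron markers furthest against brain.

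Nitrogen disposal held higher genes at the entry to the urea cycle. Of 15 genes of urea and ammonia handling, 7 rose and none fell, with a median of 0.83. Nags, which makes the N-acetylglutamate that switches on carbamoyl phosphate synthesis, had 8.40 in frozen and 6.86 in FFPE liver, against 3.06 to 4.79 (median 4.07) in the other libraries, and a difference of 3.66 ± 0.41, adjusted p = 0.000231. Car5a, the mitochondrial carbonic anhydrase that supplies bicarbonate to that step, had 6.02 in frozen and 4.73 in FFPE liver, against 1.34 to 3.50 (median 3.04) in the other libraries, and a difference of 2.63 ± 0.51, adjusted p = 0.00494. Cps1, the carbamoyl phosphate synthetase itself, had 7.02 in frozen and 5.93 in FFPE liver, against 4.23 to 5.27 (median 4.46) in the other libraries, and a difference of 1.88 ± 0.32, adjusted p = 0.00231. Aldh18a1, which makes the proline and ornithine precursor from glutamate, had 4.47 in frozen and 4.91 in FFPE liver, against 4.79 to 5.89 (median 5.52) in the other libraries, and its difference of -0.72 did not pass (adjusted p = 0.059). Of these genes Nags kept its call in every fit that left out 1 library, while Cps1 and Car5a lost theirs without frozen liver.

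Amino acid breakdown and the methyl and sulfur cycle rose in more than 1 in 2 members. Of 50 genes of amino acid breakdown, 27 rose and none fell, with a median of 1.12, and of 34 genes of the methyl and sulfur cycle, 22 rose and none fell, with a median of 1.10. Hpd, the hydroxyphenylpyruvate dioxygenase of tyrosine breakdown, had 7.71 in frozen and 6.0 in FFPE liver, against 3.30 to 4.45 (median 3.57) in the other libraries, and a difference of 3.12 ± 0.35, adjusted p = 0.000231. Ftcd, which channels histidine carbon into folate, had 6.62 in frozen and 5.82 in FFPE liver, against 3.46 to 4.33 (median 4.13) in the other libraries. Gpt, alanine aminotransferase, had 8.45 in frozen and 6.67 in FFPE liver, against 4.91 to 5.84 (median 5.44) in the other libraries, and Gcdh, the glutaryl-CoA dehydrogenase of lysine breakdown, had 7.85 in frozen and 6.59 in FFPE liver, against 5.56 to 6.58 (median 5.88) in the other libraries. Their differences were 2.22, 2.14 and 1.22, all of which passed, although at Gcdh frozen kidney, at 6.58, came up to FFPE liver. Liver stood clear of the other organs at Hpd, Ftcd and Gpt. Mccc1, a subunit of the leucine pathway carboxylase, had 3.21 in frozen and 3.87 in FFPE liver, against 3.13 to 4.95 (median 4.39) in the other libraries, a difference of -0.71 that did not pass.

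In the methyl cycle, Gnmt, which consumes S-adenosylmethionine by methylating glycine, had 7.65 in frozen and 6.06 in FFPE liver, against 2.72 to 5.15 (median 3.95) in the other libraries, and a difference of 2.92 ± 0.37, adjusted p = 0.000378. Mat1a, the adult liver form of methionine adenosyltransferase, had 6.61 in frozen and 5.93 in FFPE liver, against 3.23 to 4.22 (median 3.62) in the other libraries, and a difference of 2.62 ± 0.33, adjusted p = 0.000374. Mat2a, the form of most other tissues, had 4.68 in frozen and 5.18 in FFPE liver, against 4.77 to 6.16 (median 5.54) in the other libraries, a difference of -0.61 that did not pass (adjusted p = 0.0712). Cbs, which begins transsulfuration, differed by 1.82 ± 0.28, adjusted p = 0.00122, and Mpst, a sulfurtransferase of cysteine breakdown, by 1.42 ± 0.19, adjusted p = 0.000469. Of 44 genes of vitamin and cofactor metabolism, 25 rose and none fell, with a median of 1.02. Dpys, the dihydropyrimidinase of pyrimidine breakdown, differed by 2.49 ± 0.38, adjusted p = 0.00112. Allc, allantoicase, had 0.46 in frozen and 2.88 in FFPE liver, against 1.82 to 3.74 (median 2.84) in the other libraries and did not pass (difference -1.14).

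Among isozymes, the forms used by liver carried more of the mark while some forms of other organs carried less. Of 22 liver forms tested, 16 rose and none fell, with a median of 1.55, and of 33 forms of other organs none rose and 6 fell, with a median of -0.47. The forms that fell included Ldhb, Fabp3, Slc2a3, Pkm and Hk1. Pklr, pyruvate kinase of liver and red cells, had 5.92 in frozen and 5.88 in FFPE liver, against 3.09 to 4.65 (median 4.13) in the other libraries, and a difference of 1.83 ± 0.29, adjusted p = 0.00146. Pkm, the muscle and general form, had 4.85 in frozen and 5.38 in FFPE liver, against 5.50 to 6.52 (median 6.28) in the other libraries, and a difference of -1.06 ± 0.23, adjusted p = 0.00935. Slc2a2, the low-affinity glucose transporter Glut2, had 5.99 in frozen and 5.35 in FFPE liver, against 3.60 to 4.78 (median 3.95) in the other libraries, and a difference of 1.56 ± 0.28, adjusted p = 0.0031. Slc2a3, the neuronal transporter Glut3, had 3.72 in frozen and 4.46 in FFPE liver, against 3.92 to 6.27 (median 5.23) in the other libraries, and a difference of -1.21 ± 0.28, adjusted p = 0.0137. Slc2a1, the transporter Glut1 of many tissues, differed by 0.28 and did not pass. Both liver libraries lay above all others at Pklr and Slc2a2 and below all others at Pkm. Pklr, Slc2a2 and Pkm lost their calls without frozen liver.

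Lactate dehydrogenase split in the same manner. Ldhb, the heart-type subunit, had 2.51 in frozen and 2.92 in FFPE liver, against 4.01 to 4.97 (median 4.61) in the other libraries, and was lower than in brain, heart and kidney each, with a difference of -1.86 ± 0.31, adjusted p = 0.00182. Ldha, the subunit of muscle and liver, had 6.78 in frozen and 6.13 in FFPE liver, against 5.32 to 6.28 (median 5.66) in the other libraries, where frozen heart and frozen kidney lay above FFPE liver, and a difference of 0.70 ± 0.19, adjusted p = 0.0302. Fabp3, the heart fatty acid binding protein, differed by -1.53 ± 0.41, adjusted p = 0.0291. Ldhb kept its call in every fit that left out 1 library, whereas Ldha lost it in 5 of 8 fits, Fabp3 in 5, Slc2a3 in 3 and Hk1 in 6.

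In other pairs the liver form passed and its counterpart did not, and the difference between the 2 forms was not tested. Pygl, liver glycogen phosphorylase, had 6.98 in frozen and 6.07 in FFPE liver, against 4.50 to 5.60 (median 5.05) in the other libraries, and a difference of 1.47 ± 0.24, adjusted p = 0.00161, and Pygm, the muscle form, had 3.53 in frozen and 5.72 in FFPE liver, against 4.86 to 6.37 (median 5.56) in the other libraries and a difference of -1.01 (adjusted p = 0.0635). Gys2, liver glycogen synthase, differed by 1.70 ± 0.39, adjusted p = 0.0137, and Gys1 by 0.02. Arg1, liver arginase, differed by 2.23 ± 0.56, adjusted p = 0.0216, and Arg2 by -0.18. Arg1 lost its call in 4 of the 8 fits that left out 1 library, with differences of 0.68 to 3.78, and Pygl and Gys2 lost theirs without frozen liver. In the pair of carnitine palmitoyltransferases neither Cpt1a, at 0.41, nor Cpt1b, at -0.34 with 18 liver reads, passed.

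Hk1, the hexokinase of most tissues, had 5.15 in frozen and 6.10 in FFPE liver, against 6.04 to 6.86 (median 6.61) in the other libraries, and a difference of -0.90 ± 0.26, adjusted p = 0.0448, and Hk2 a difference of -0.19.

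**Figure D4:**
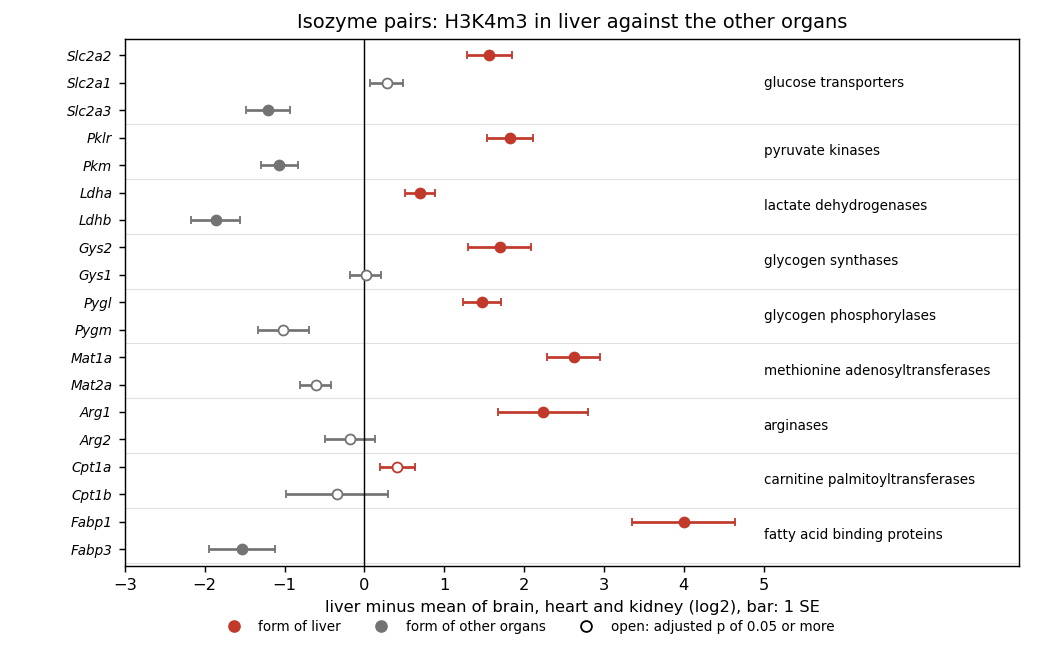
Difference of liver against the mean of brain, heart and kidney (log2, bars 1 SE) for isozymes, red for the form of liver and grey for the forms of other organs, with open points where the adjusted p was 0.05 or more. Red points lie right of 0, and the filled grey points Slc2a3, Pkm, Ldhb and Fabp3 lie left of 0.

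Of 28 genes of glucose output and storage, 15 rose and none fell. Fbp1, the fructose bisphosphatase of gluconeogenesis, had 6.48 in frozen and 5.51 in FFPE liver, against 2.25 to 5.49 (median 2.87) in the other libraries, and a difference of 2.63 ± 0.39, adjusted p = 0.000999. Liver and kidney, both of which make glucose, differed by 1.09 ± 0.48 at Fbp1 (adjusted p = 0.315). G6pc, which releases free glucose, had 6.75 in frozen and 5.30 in FFPE liver, against 2.70 to 5.05 (median 3.93) in the other libraries, a difference of 2.08 ± 0.42, adjusted p = 0.00579, and 0.98 ± 0.51 against kidney (adjusted p = 0.426). Tkfc, which phosphorylates the triose of fructose breakdown, had 6.65 in frozen and 6.08 in FFPE liver, against 3.52 to 5.04 (median 4.36) in the other libraries and was higher than each organ, with a difference of 2.08 ± 0.30, adjusted p = 0.00078.

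Lipid genes rose in oxidation, synthesis, transport and storage. Of 44 genes of ketogenesis and fatty acid oxidation, 15 rose and 1 fell, with a median of 0.62, and of 50 genes of sterol and lipid synthesis, 24 rose and none fell, with the same median. Slc25a47, a mitochondrial carrier of hepatocytes, had 6.90 in frozen and 5.67 in FFPE liver, against 2.94 to 3.40 (median 3.30) in the other libraries, and a difference of 3.03 ± 0.35, adjusted p = 0.000265. Acaa1b, a peroxisomal thiolase, differed by 2.04 ± 0.25, adjusted p = 0.000301, and Acsm5, a medium-chain acyl-CoA synthetase, by 2.04 ± 0.30, adjusted p = 0.000976. Crat, carnitine acetyltransferase, had 6.09 in frozen and 6.26 in FFPE liver, against 6.26 to 7.53 (median 6.94) in the other libraries and was the member that fell, with a difference of -0.75 ± 0.19, adjusted p = 0.0233, a call lost in 5 of the 8 fits that left out 1 library. Lcat, which esterifies cholesterol on plasma lipoproteins, had 7.86 in frozen and 6.05 in FFPE liver, against 2.57 to 4.39 (median 3.99) in the other libraries, and a difference of 3.27 ± 0.50, adjusted p = 0.00121. The lipid droplet proteins Cidec, at 2.55 ± 0.42, adjusted p = 0.00177, and Plin5, at 1.93 ± 0.30, adjusted p = 0.00125, were higher, and at Plin5 heart, which also burns fat, came nearest with 5.37 and 5.19 in frozen and FFPE heart, against 6.89 in frozen and 6.03 in FFPE liver. Acsm5, Lcat, Cidec and Plin5 lost their calls without frozen liver. Plin5 lies 2071 bases from a gene that was higher by 1.91, and whether they share reads was not tested.

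Enzymes that modify drugs, steroids and other foreign compounds rose across several families. Of 20 Ugt genes, which attach glucuronic acid, 12 rose and none fell, with a median of 2.60. Ugt2b1 had 7.40 in frozen and 6.08 in FFPE liver, against 1.63 to 3.73 (median 3.40) in the other libraries, and a difference of 3.64 ± 0.45, adjusted p = 0.000343. Ugt2b35, its neighbour on chromosome 5, differed by 3.60 ± 0.50, adjusted p = 0.000706. Ugt1a1, which conjugates bilirubin, had 8.07 in frozen and 6.75 in FFPE liver, against 2.08 to 5.19 (median 4.22) in the other libraries, and a difference of 3.37 ± 0.52, adjusted p = 0.00122, whereas Ugt1a7c, another first exon of the same Ugt1a locus on chromosome 1, had 3.43 in frozen and 3.47 in FFPE liver, against 1.98 to 4.36 (median 3.19) in the other libraries and a difference of 0.17 that did not pass. The transcripts of that locus share their last exons, so reads there cannot be assigned to 1 of them.

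Of 85 cytochrome P450 genes of families 1 to 4, 33 rose and 1 fell, with a median of 0.82. Cyp2c50 had 6.78 in frozen and 6.28 in FFPE liver, against 3.63 to 4.31 (median 4.03) in the other libraries, and a difference of 2.53 ± 0.28, adjusted p = 0.000231. The member that fell was Cyp1b1, a P450 of vessel walls and other tissues outside the liver, with 4.59 in frozen and 5.32 in FFPE liver, against 5.01 to 6.54 (median 6.24) in the other libraries and a difference of -1.03 ± 0.22, adjusted p = 0.00935. Of 20 carboxylesterases, 9 rose and none fell, with a median of 1.09. Ces3a had 7.23 in frozen and 6.30 in FFPE liver, against 2.82 to 3.72 (median 3.04) in the other libraries, and a difference of 3.59 ± 0.35, adjusted p = 0.000114, and its near copy Ces3b differed by 3.52 ± 0.43, adjusted p = 0.000301. Of 25 glutathione transferases 7 rose, and of 21 sulfotransferases 3 rose. Gstp3 differed by 2.28 ± 0.41, adjusted p = 0.00333, Gstz1, which also serves tyrosine breakdown, by 2.26 ± 0.37, adjusted p = 0.00169, and Sult2a8 by 1.93 ± 0.44, adjusted p = 0.0121.

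Steroid and alcohol dehydrogenases were among the higher genes too. Hsd17b2, which inactivates oestradiol and testosterone, had 6.86 in frozen and 5.42 in FFPE liver, against 1.64 to 4.04 (median 3.12) in the other libraries, and a difference of 3.10 ± 0.45, adjusted p = 0.000827. Akr1c6, a hepatic ketosteroid reductase, had 6.28 in frozen and 4.83 in FFPE liver, against 2.08 to 3.42 (median 2.72) in the other libraries, and a difference of 2.89 ± 0.47, adjusted p = 0.00174. Adh1, the class I alcohol dehydrogenase, had 6.55 in frozen and 5.20 in FFPE liver, against 2.83 to 4.77 (median 4.04) in the other libraries, a difference of 1.98 ± 0.33, adjusted p = 0.00201, and 1.15 ± 0.41 against kidney (adjusted p = 0.178). All 3 lost their call without frozen liver, and so did Gstp3, Gstz1, Sult2a8 and Cyp1b1.

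Among genes of iron handling, 3 through which hepatocytes read iron supply were higher than in each organ. Of 30 genes of iron, copper and haem handling, 9 rose and none fell, with a median of 0.34. Hjv, the hemojuvelin co-receptor through which hepatocytes set hepcidin, had 7.43 in frozen and 6.29 in FFPE liver, against 2.61 to 4.94 (median 4.05) in the other libraries, and a difference of 3.00 ± 0.40, adjusted p = 0.000508. Tfr2, the transferrin sensor, had 7.08 in frozen and 6.80 in FFPE liver, against 4.45 to 5.33 (median 5.04) in the other libraries, and a difference of 1.96 ± 0.23, adjusted p = 0.000264, and Tmprss6, the protease that cleaves hemojuvelin, had 5.82 in frozen and 6.14 in FFPE liver, against 3.78 to 5.12 (median 4.41) in the other libraries, and a difference of 1.60 ± 0.24, adjusted p = 0.00119. Both liver libraries lay above all 6 others at these 3 genes. Bmp6, the ligand of that receptor complex made by endothelial cells, had 4.75 in frozen and 5.30 in FFPE liver, against 4.86 to 6.24 (median 5.60) in the other libraries, and its difference of -0.54 did not pass.

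Of 47 hormone and receptor genes, 27 rose and none fell, with a median of 1.15. Inhbe, the activin E subunit, a secreted factor that restrains fat release, had 8.89 in frozen and 6.94 in FFPE liver, against 3.46 to 4.68 (median 4.29) in the other libraries, and a difference of 3.64 ± 0.39, adjusted p = 0.000201. Asgr1, the asialoglycoprotein receptor, had 7.10 in frozen and 5.74 in FFPE liver, against 3.13 to 3.72 (median 3.37) in the other libraries, and a difference of 3.04 ± 0.34, adjusted p = 0.000231. Avpr1a, the vasopressin receptor, had 7.56 in frozen and 6.33 in FFPE liver, against 3.84 to 5.92 (median 4.97) in the other libraries, where frozen heart at 5.92 came nearest, and a difference of 2.08 ± 0.22, adjusted p = 0.000201. Fgf21, the fasting hormone and the only Fgf ligand that rose among 22, had 5.34 in frozen and 4.18 in FFPE liver, against 0.54 to 3.44 (median 2.83) in the other libraries, and a difference of 2.31 ± 0.56, adjusted p = 0.0174, a call lost without frozen liver and without frozen heart. Adra1b, the alpha-adrenergic receptor, had 3.67 in frozen and 4.86 in FFPE liver, against 4.46 to 5.43 (median 5.14) in the other libraries and a difference of -0.76 that did not pass.

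Junction and polarity genes rose more often than they fell. Of 43 tested, 12 rose (27.9%) and 2 fell (4.65%), with a median of 0.37. Among 31 claudins 4 rose (12.9%) and 2 fell (6.45%), with a median of -0.38. Of all tested genes 5.13% rose and 4.84% fell. Claudins seal the gaps between epithelial cells and set which ions pass. Cldn3 had 8.31 in frozen and 6.35 in FFPE liver, against 3.09 to 6.13 (median 4.18) in the other libraries, and a difference of 3.00 ± 0.35, adjusted p = 0.000266. Cldn1 and Cldn14 differed by 2.19 ± 0.36, adjusted p = 0.00177 and 2.28 ± 0.41, adjusted p = 0.0033. Cldn2, which makes a cation pore, had 7.23 in frozen and 5.90 in FFPE liver, against 6.79 and 5.73 in frozen and FFPE kidney and at most 3.78 in brain and heart, with a difference of 2.44 ± 0.34, adjusted p = 0.00071 from the mean and of 0.31 ± 0.42 from kidney (adjusted p = 0.84). Cldn10, a claudin of renal tubules, had 1.35 in frozen and 3.13 in FFPE liver, against 3.40 to 6.32 (median 4.05) in the other libraries, and a difference of -2.13 ± 0.47, adjusted p = 0.0103. Krt8, the keratin of simple epithelia, had 6.04 in frozen and 5.65 in FFPE liver, against 2.59 to 5.52 (median 3.46) in the other libraries, and a difference of 1.98 ± 0.32, adjusted p = 0.00156. Ceacam1, an adhesion molecule of the canalicular membrane, was higher by 1.51, and the connexin gene Gjc1 was lower by a difference of -1.12 (adjusted p = 0.0158), a call lost in 4 of the 8 fits that left out 1 library. Cldn1, Cldn14, Cldn10, Krt8 and Ceacam1 lost their calls without frozen liver.

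The cytoplasmic ribosomal, respiratory chain and proteasome families, which every cell uses, had positive medians and no lower members. Of 82 cytoplasmic ribosomal protein genes, 16 rose (19.5%) and none fell, with a median of 0.43. Of 100 respiratory chain genes 1 rose (1%), with a median of 0.16, which was 0.30 in frozen and -0.03 in FFPE tissue. Of 45 proteasome genes 2 rose (4.44%), with a median of 0.29. The respiratory chain and proteasome shares were below the 5.13% of all tested genes that rose. Rpl27a, the ribosomal gene with the smallest p, had 7.16 in frozen and 6.23 in FFPE liver, against 5.25 to 6.19 (median 5.90) in the other libraries, and a difference of 0.93 ± 0.21, adjusted p = 0.0117. The proteasome genes were Psmb8 and Psmb9, inducible subunits of the immunoproteasome. Psmb8 had 6.10 in frozen and 5.54 in FFPE liver, against 6.12 and 5.49 in frozen and FFPE heart, and differed by 1.94 ± 0.25 from brain (adjusted p = 0.000211) and by 0.01 ± 0.25 from heart (adjusted p = 0.987). Psmb9 differed from the mean by 1.03 ± 0.28, adjusted p = 0.03. Uqcrq, the respiratory gene that rose (0.71 ± 0.20, adjusted p = 0.0333), lies 4785 bases from Leap2. Psmb8, Psmb9 and Uqcrq lost their calls in 5 or more of the 8 fits that left out 1 library.

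Genes lower in liver than in every other organ formed a smaller set with mixed functions. The plot of lower genes by library shows some of them beside other lower genes, such as Kcnj11, which did not pass against kidney. Dach1, a nuclear factor of eye, limb and vessel development (chr14:97786846-98169765), had 4.57 in frozen and 4.18 in FFPE liver, against 5.70 to 7.30 (median 6.59) in the other libraries. The difference was -2.24 ± 0.18, adjusted p = 5.59e-05, nearly the same in frozen tissue at -2.41 as in FFPE tissue at -2.07. Car4, the membrane-bound carbonic anhydrase, had 1.11 in frozen and 2.83 in FFPE liver, against 3.79 to 5.17 (median 4.40) in the other libraries, and a difference of -2.53 ± 0.40, adjusted p = 0.00137. Cryab, the small heat shock protein alpha-B crystallin, had 3.27 in frozen and 4.00 in FFPE liver, against 4.88 to 6.48 (median 5.69) in the other libraries, and a difference of -2.06 ± 0.32, adjusted p = 0.00146. Chst11, a chondroitin sulfotransferase, had 3.95 in frozen and 5.08 in FFPE liver, against 5.65 to 7.09 (median 6.30) in the other libraries, and a difference of -1.82 ± 0.33, adjusted p = 0.00329. In each of these both liver libraries lay below all 6 others.

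Genes of energy buffering and export were also lower. Ckb, the brain-type creatine kinase that keeps ATP steady through phosphocreatine (chr12:111669355-111672338), had 4.34 in frozen and 5.65 in FFPE liver, against 6.34 to 8.18 (median 7.08) in the other libraries, and a difference of -2.14 ± 0.31, adjusted p = 0.000824. Brain was highest with 8.18 and 7.75 in frozen and FFPE tissue, and liver was lower than heart by a difference of -1.80 ± 0.38 and than kidney by -1.64 ± 0.38. Slc25a4, the heart and muscle form of the mitochondrial ADP/ATP carrier, had 3.72 in frozen and 4.02 in FFPE liver, against 5.17 to 6.44 (median 5.84) in the other libraries, and a difference of -2.01 ± 0.23, adjusted p = 0.000264. Of 40 energy enzymes typical of other tissues, 6 fell, 1 rose and the median was -0.33, and 1 was lower than in each organ. Pgam2, the muscle phosphoglycerate mutase, had -0.03 in frozen and 2.78 in FFPE liver, against 5.49 and 5.26 in frozen and FFPE heart, and a difference of -2.72 ± 0.50, adjusted p = 0.00362. Ckmt1, a mitochondrial creatine kinase, had 2.51 in frozen and 4.30 in FFPE liver, against 6.65 and 5.89 in frozen and FFPE brain, and a difference of -1.50 ± 0.39, adjusted p = 0.0258. Tpi1, triose phosphate isomerase, was the member that rose, by 0.63 (adjusted p = 0.0266). Ckmt1 lost its call in 5 and Tpi1 in 6 of the 8 fits that left out 1 library.

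**Figure D5:**
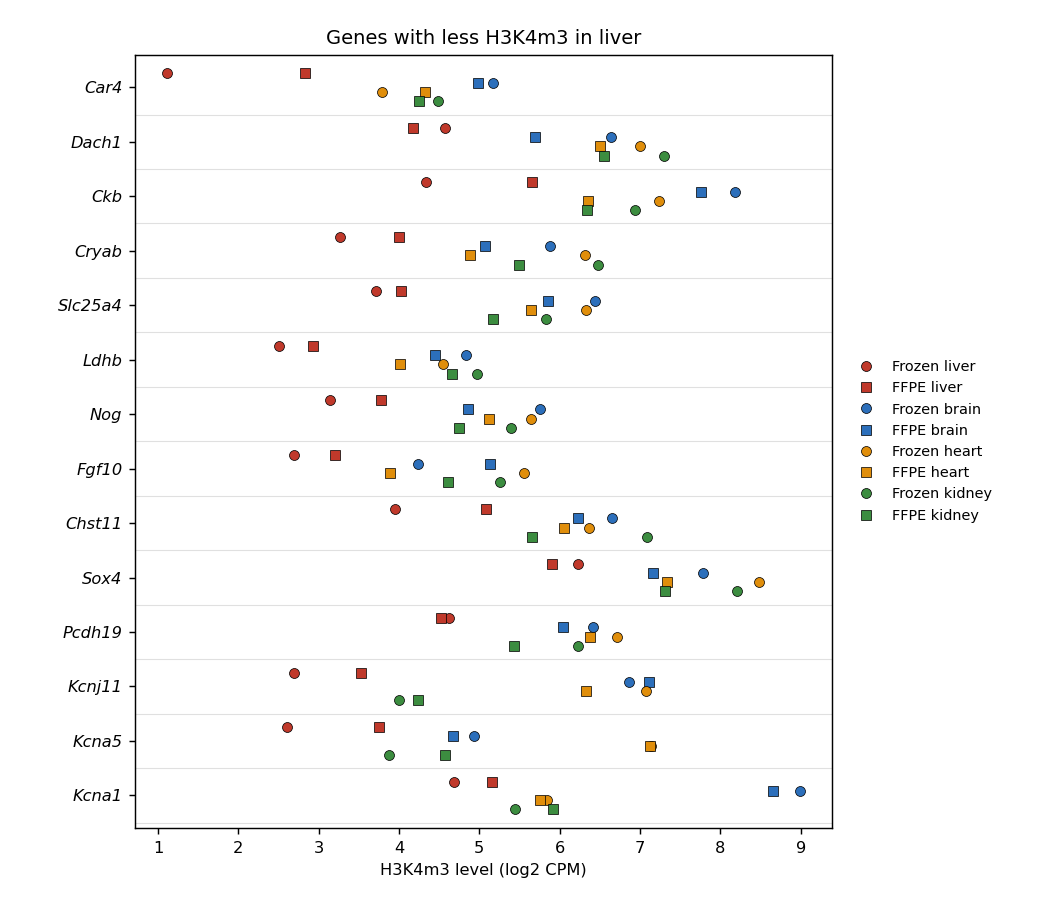
H3K4m3 level (log2 CPM) of 14 genes that were lower in liver, 1 point per library, with circles for frozen and squares for FFPE tissue and colours for organs. Both liver points lie to the left of all 6 others for every gene shown, and the lower 3 genes show kidney nearest to liver while brain or heart is high.

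Several secreted signals and their inhibitors were lower as well. Nog, noggin, which binds and blocks Bmp ligands, had 3.14 in frozen and 3.77 in FFPE liver, against 4.74 to 5.75 (median 5.26) in the other libraries, and a difference of -1.80 ± 0.29, adjusted p = 0.00169. Fgf10, a growth factor sent from mesenchyme to epithelium, had 2.69 in frozen and 3.21 in FFPE liver, against 3.89 to 5.56 (median 4.87) in the other libraries, and a difference of -1.83 ± 0.41, adjusted p = 0.011. Fgf9 had 3.95 in frozen and 5.16 in FFPE liver, against 4.89 to 7.00 (median 6.11) in the other libraries, with brain highest, and a difference of -1.47 ± 0.24, adjusted p = 0.00169. Of 22 Fgf ligands 5 fell, with a median of -0.59, and of 19 Wnt ligands none passed. Of 35 Notch and TGF-beta genes 9 fell (25.7%) and 1 rose (2.86%), with a median of -0.0006. Differences were above 0 in 17 members and below 0 in 18. Hey1, a Notch target, had 5.61 in frozen and 5.85 in FFPE liver, against 5.67 to 7.62 (median 6.94) in the other libraries and a difference of -1.04 ± 0.19, adjusted p = 0.00353, with FFPE kidney, at 5.67, at the level of liver. Of 21 hedgehog pathway genes 1 rose and 1 fell (4.76% each), where 5.13% of all tested genes rose and 4.84% fell. The member that fell was Boc, a co-receptor, which had 4.62 in frozen and 5.18 in FFPE liver, against 5.82 to 6.56 (median 6.30) in the other libraries, and a difference of -1.33 ± 0.22, adjusted p = 0.00199. Ihh, a ligand of that pathway, had 6.38 in frozen and 5.64 in FFPE liver, against 6.33 and 5.39 in frozen and FFPE kidney and at most 4.47 in brain and heart, and a difference of 1.40 ± 0.31, adjusted p = 0.0106. Fgf10, Hey1, Boc and Ihh lost their calls without frozen liver.

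Potassium channels were the family with the highest number of lower members among the 48 families counted, many of them smaller. The share that fell was 29.6% in potassium channels and 31.8% in Eph receptors and ephrins, against 4.84% of all tested genes. Of 98 potassium channel genes, 29 fell and 2 rose, with a median of -0.60, which was -0.89 against brain, -0.51 against heart and -0.38 against kidney. Kcnj11, the pore of the ATP-sensitive potassium channel (chr7:46097123-46100952), had 2.69 in frozen and 3.53 in FFPE liver, against 6.87 and 7.11 in brain, 7.07 and 6.33 in heart and 4.00 and 4.24 in kidney, frozen before FFPE. Its difference was -2.82 ± 0.27, adjusted p = 0.000113, against kidney -1.01 ± 0.33 (adjusted p = 0.132). Abcc8, the sulfonylurea receptor that regulates this pore, lies 3570 bases away and had 3.38 in frozen and 5.07 in FFPE liver, against 4.12 to 6.26 (median 5.57) in the other libraries, and a difference of -1.21 ± 0.27, adjusted p = 0.0115.

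Kcna5, a voltage-gated channel of atrial muscle, had 2.60 in frozen and 3.75 in FFPE liver, against 7.13 and 7.12 in frozen and FFPE heart, and a difference of -2.21 ± 0.28, adjusted p = 0.000416. Kcna1, a channel of axons, had 4.68 in frozen and 5.15 in FFPE liver, against 8.99 and 8.65 in frozen and FFPE brain, and a difference of -1.85 ± 0.20, adjusted p = 0.000197. Kcnh2, which repolarises the heart, differed by -1.55 ± 0.22, adjusted p = 0.00076. Kidney was the organ nearest to liver in each of these. The members that rose were Kcnn2, a calcium-activated channel, with 6.92 in frozen and 5.47 in FFPE liver, against 3.02 to 6.21 (median 4.58) in the other libraries and a difference of 1.50 ± 0.25, adjusted p = 0.00177, and Kcnk5, a background channel, with 7.19 in frozen and 5.91 in FFPE liver, against 4.42 to 6.33 (median 5.23) in the other libraries and a difference of 1.24 ± 0.26, adjusted p = 0.00758. Sodium and calcium channels fell in 7 of 44 members and rose in none. Cacnb2, a calcium channel subunit, had 4.50 in frozen and 4.02 in FFPE liver, against 5.21 to 5.83 (median 5.67) in the other libraries, was lower than in each organ and differed by -1.35 ± 0.21, adjusted p = 0.00125. Of 53 glutamate, GABA and glycine receptor genes 11 fell and none rose, among them Gabrb2 at -1.54 and Gria4 at -1.29, both with the highest levels in brain.

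Protocadherins and axon guidance families had lower members, while of 23 cadherins 1 fell and of 27 adhesion G protein-coupled receptors none fell and 1 rose. Of all tested genes 4.84% fell and 5.13% rose. Of 69 protocadherins, which give neurons adhesive identities, 13 fell and none rose, with a median of -0.52. Pcdh19 had 4.62 in frozen and 4.52 in FFPE liver, against 5.43 to 6.71 (median 6.30) in the other libraries, was lower than in each organ and differed by -1.63 ± 0.19, adjusted p = 0.000285. Pcdh7 had 6.09 in frozen and 5.75 in FFPE liver, against 6.55 to 8.09 (median 7.50) in the other libraries, and a difference of -1.45 ± 0.17, adjusted p = 0.000248. Pcdh10 had 4.89 in frozen and 5.09 in FFPE liver, against 8.25 and 7.71 in frozen and FFPE brain, and a difference of -1.54 ± 0.19, adjusted p = 0.000312. Pcdhgc4, of the gamma cluster, differed by -1.82 ± 0.24, adjusted p = 0.000479. Of 22 Eph receptors and ephrins 7 fell and 1 rose, of 32 semaphorins and plexins 9 fell and 2 rose, and of 20 Slit, Robo and netrin genes 5 fell and none rose. Ephb1 had 3.92 in frozen and 4.25 in FFPE liver, against 5.13 to 6.42 (median 5.76) in the other libraries, and a difference of -1.69 ± 0.23, adjusted p = 0.000512. Its ligand gene Efnb2 differed by -1.24 ± 0.21, adjusted p = 0.00247, the netrin relative Ntng1 by -1.40 ± 0.22, adjusted p = 0.00137 and Sema6a by -1.08 ± 0.19, adjusted p = 0.00236.

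The semaphorins that rose were Sema6b, with 7.97 in frozen and 7.11 in FFPE liver, against 5.84 to 6.74 (median 6.09) in the other libraries and a difference of 1.34 ± 0.20, adjusted p = 0.00121, and Sema4g, with 6.47 in frozen and 6.51 in FFPE liver, against 4.16 to 5.86 (median 5.33) in the other libraries and a difference of 1.41 ± 0.25, adjusted p = 0.00279. Sema6b, Sema6a, Ephb1 and Efnb2 kept their calls in every fit that left out 1 library. Sema6b lies 1138 bases from a gene that was higher by 1.91, and whether they share reads was not tested. Of 66 amino acid transporters, 5 rose (7.58%) and 9 fell (13.6%), where 5.13% of all tested genes rose and 4.84% fell. Their median of -0.05 became 0.01 with scaling to equal spread. Slc6a13, a GABA and taurine transporter of hepatocytes, had 5.66 in frozen and 5.55 in FFPE liver, against 3.66 to 4.30 (median 4.02) in the other libraries, and a difference of 1.61 ± 0.27, adjusted p = 0.00198. Slc1a3, a glutamate transporter of astrocytes, had 4.13 in frozen and 4.21 in FFPE liver, against 4.95 to 5.92 (median 5.38) in the other libraries, and a difference of -1.20 ± 0.24, adjusted p = 0.00535, and Slc38a1, a glutamine transporter of neurons, differed by -1.07 ± 0.18, adjusted p = 0.00177.

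Sox and Hox genes, which pattern the embryo, were lower where they passed. Of 22 Sox genes 4 fell and none rose. Sox4 had 6.23 in frozen and 5.91 in FFPE liver, against 7.16 to 8.48 (median 7.56) in the other libraries, and a difference of -1.64 ± 0.18, adjusted p = 0.000201, and Sox11 had 5.42 in frozen and 5.71 in FFPE liver, against 6.16 to 7.61 (median 6.96) in the other libraries, and a difference of -1.36 ± 0.20, adjusted p = 0.000987. Both were lower than in each organ. Of 41 Hox genes 8 fell and none rose, with a median of -0.70. The median was -2.23 against kidney, -0.41 against heart and 0.29 against brain. Hoxa9 had 1.35 in frozen and 4.04 in FFPE liver, against 7.79 and 7.32 in frozen and FFPE kidney and at most 4.09 in brain and heart, and a difference of -2.41 ± 0.44, adjusted p = 0.00359.

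Several of the largest negative differences rested on few reads. Of the 15 lower genes named for the size of their difference, 9 had under 10 reads in the 2 liver libraries together, and of all 1242 lower genes 26 did. Olfr361, an olfactory receptor gene, had 1 read in liver, against 87 reads in the other libraries, and a difference of -3.91 ± 0.79, adjusted p = 0.00606. Of 1122 olfactory receptor genes 17 fell (1.5%, where 4.84% of all tested genes fell) and none rose. Their median of -0.10 changed sign under both other scalings tried. Tmem35a, which assists the assembly of nicotinic receptors, had -2.35 in frozen and 2.26 in FFPE liver, against 2.50 to 4.60 (median 3.53) in the other libraries and 20 liver reads, and a difference of -3.56 ± 0.79, adjusted p = 0.0106. Zcchc18, a zinc finger gene on the X chromosome, had 0.82 in frozen and 2.11 in FFPE liver, against 6.42 and 6.05 in frozen and FFPE brain, with 22 liver reads and a difference of -2.79 ± 0.44, adjusted p = 0.00152. For such genes the size of the difference depends on the 0.5 reads added before the logarithm.

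MicroRNA genes are short and their counts were low. Of 164 tested, 5 rose (3.05%) and 7 fell (4.27%), where 5.13% and 4.84% of all tested genes did. The mature sequences of the main ones that passed are shown from RefSeq, build GRCm38.p6, with the seed (bases 2 to 8), through which a microRNA finds its targets, in capitals. The first 3 belong to genes that rose and the other 3 to genes that fell, and no seed occurs among them more than once.
miR-148a-3p: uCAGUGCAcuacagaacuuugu
miR-194-5p: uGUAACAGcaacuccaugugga
miR-193a-3p: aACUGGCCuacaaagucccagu
miR-92b-3p: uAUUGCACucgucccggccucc
miR-129-5p: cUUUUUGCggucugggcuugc
miR-744-5p: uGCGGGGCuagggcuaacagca

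Mir148a (chr6:51269812-51269910), abundant in liver and a regulator of lipoprotein receptor expression, had 5.08 in frozen and 3.41 in FFPE liver, against -2.15 to 2.82 (median 0.38) in the other libraries and 131 liver reads. The difference was 3.81 ± 0.79, adjusted p = 0.00703. It stood far from brain and kidney, at 4.51 and 5.21, while heart was nearer at 1.71 (adjusted p = 0.366). Mir194-2 had 4.52 in frozen and 3.05 in FFPE liver, against -1.82 to 1.94 (median 1.12) in the other libraries, and a difference of 3.10 ± 0.83, adjusted p = 0.0281, and its cluster partner Mir192, 115 bases away on chromosome 19, a difference of 2.95 ± 0.82, adjusted p = 0.0358. Mir193a had 4.68 in frozen and 3.91 in FFPE liver, against 0.85 to 3.92 (median 2.60) in the other libraries, and a difference of 1.82 ± 0.45, adjusted p = 0.0185. Mir3073a, which lies within Aspg, itself higher by 1.20, differed by 3.19 ± 0.87, adjusted p = 0.0316 on 44 liver reads. Of the 8 fits that left out 1 library, Mir192 and Mir3073a lost their calls in 5, Mir194-2, Mir193a and Aspg in 4 and Mir148a in 1, that without frozen liver.

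Mir744, within Map2k4, had no read in liver, against 52 reads in the other libraries. A count of 0 allows up to 3 reads over the liver group, which puts its level at least 5.77-fold lower. Mir92b and Mir129-2 had 2 liver reads each, against 84 and 114 reads in the other libraries, with differences of -3.10 ± 0.68, adjusted p = 0.0099 and -3.29 ± 0.75, adjusted p = 0.012. Both lost their calls without frozen liver and without frozen brain, and Mir744 and Mir3081 without frozen liver. Mir3081 had 1.35 in frozen and 1.42 in FFPE liver, against 2.96 to 4.36 (median 3.98) in the other libraries, but it lies inside Boc, which fell too, so the reads of these 2 cannot be told apart. Mir124a-1hg, host gene of the neuronal microRNA miR-124, had 3.01 in frozen and 3.98 in FFPE liver, against 8.25 and 8.15 in frozen and FFPE brain, and a difference of -2.31 ± 0.28, adjusted p = 0.000291.

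Markers of the other cells of liver, and of the cells of the other organs, were read as lists. Of 12 liver sinusoidal endothelial markers 6 rose and none fell, with a median of 0.87. Clec4g, a lectin of these cells, had 5.13 in frozen and 5.10 in FFPE liver, against 2.13 to 3.80 (median 2.96) in the other libraries, and a difference of 2.21 ± 0.37, adjusted p = 0.00193. Stab2, their scavenger receptor for hyaluronan, had 6.18 in frozen and 6.89 in FFPE liver, against 5.17 to 6.11 (median 5.63) in the other libraries, and a difference of 0.93 ± 0.18, adjusted p = 0.00451. Of 13 Kupffer cell markers 2 rose, Clec4f (1.42 ± 0.35, adjusted p = 0.0199) and the iron exporter gene Slc40a1 (1.22 ± 0.20, adjusted p = 0.00175), and the median was 0.05. Clec4f lost its call in 4 of the 8 fits that left out 1 library. The complement gene C1qb had 2.04 in frozen and 1.15 in FFPE liver, against 1.82 to 2.82 (median 1.94) in the other libraries and did not pass.

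Of 13 stellate cell markers 1 rose and 1 fell. The member that fell was Des, desmin, which had 4.06 in frozen and 4.64 in FFPE liver, against 4.59 to 5.90 (median 4.97) in the other libraries, with heart highest, and a difference of -0.81 ± 0.23, adjusted p = 0.0382, a call lost in 6 of the 8 fits that left out 1 library. Of 11 bile duct markers 1 fell. Sox9, a duct marker in liver, had 7.31 in frozen and 5.94 in FFPE liver, against 4.65 to 6.55 (median 5.85) in the other libraries, and its difference of 0.86 did not pass (adjusted p = 0.0853). None of 16 lymphoid and blood markers passed, among them Alas2, the haem enzyme of red cells, with 4.06 in frozen and 3.69 in FFPE liver, against 1.82 to 3.01 (median 2.17) in the other libraries and a difference of 1.58 (adjusted p = 0.0508).

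Markers of the neighbouring organs' cells fell in liver or did not pass, as 6 of 20 neuron markers, 4 of 17 cardiomyocyte markers and 2 of 19 kidney epithelium markers fell and none rose. Stmn2, a neuronal microtubule regulator, had 2.29 in frozen and 2.92 in FFPE liver, against 5.51 and 5.82 in frozen and FFPE brain, with a call lost in 4 of the 8 fits that left out 1 library. Mybpc3, the cardiac myosin binding protein, had 3.38 in frozen and 5.38 in FFPE liver, against 5.91 and 6.37 in frozen and FFPE heart, with a call lost in 2 of those fits. Summed over the 10 hepatocyte markers, frozen and FFPE liver held 1868 and 694 CPM, against 129 to 205 in the other libraries. Hepatocyte marker reads were thus highest in liver and higher in frozen than in FFPE liver. Summed over the cardiomyocyte markers, frozen and FFPE liver held 475 and 978 CPM, against 1531 and 1748 in frozen and FFPE heart and 644 to 1098 in brain and kidney. Neuron markers summed to 295 and 492 CPM in frozen and FFPE liver, against 1555 and 1419 in frozen and FFPE brain. Kidney epithelium markers summed to 307 and 615 CPM in frozen and FFPE liver, against 1484 and 1230 in frozen and FFPE kidney. FFPE liver held more reads at these 3 lists and fewer at hepatocyte markers than frozen liver, beside the smaller differences in FFPE tissue, and the part of this in those differences was not tested. Of all these markers Nppb, a natriuretic peptide gene of cardiomyocytes, had no read in frozen liver.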

How the data were processed

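H3K4m3 was profiled by chromatin immunoprecipitation and sequencing in 4 mouse organs. The deposited table holds log2 values per gene, which the authors had scaled to library size, as its values show. The submitters' processing notes name Bowtie2, featureCounts, limma and the mm10 build. Whole reads came back from all log2 values (100% within 0.001 of a whole number), which gave the depth of each library. Genes with a mean log2 level of at least 0 were tested with limma 3.58.1 in R 4.3.3, with organ and preservation as terms, an intensity trend and 3 residual degrees of freedom. The code was checked on simulated data. Input libraries were not used here.

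The members and gene lists were chosen with earlier results of these data known. Named genes were the 15 largest differences in each direction outside the set-aside lists with both liver libraries beyond all others, the 15 with the largest smallest pairwise difference in each direction, in each list up to 4 passing members with the smallest p and the member most against its median, members of the isozyme lists, and label markers. Not all of these are reported here, and Mir192, Slc2a1, Rdh16f2, Sdr9c7, Dock6, Itga7, Aspg, Map2k4 and Nppb were added for their position or role after values were seen. RefSeq entries matched 25275 gene identifiers. Counting error is about 10% at 100 reads, and intervals and the limit at 0 reads cover counting error only. Alternatives were other filters, scalings, weights and designs, and leaving out each library.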

Additional observations from a re-analysis of the deposited data

Results flagged for a closer look

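Nppb, a natriuretic peptide gene of cardiomyocytes, moved in opposite directions with preservation. The frozen liver level minus the mean of the other frozen libraries was -4.79 on the log2 scale, and the same difference in FFPE tissue was 0.81, with 0 reads in frozen and 41 in FFPE liver. The difference between the preservation types was not tested.

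In 4 of the 175 genes named in the text 1 of the 6 libraries of the other organs stood far from the rest. Chance gives such a mark in about 1 in 20 groups, so these 4 are not set apart from chance. Frozen brain was lowest at Sult2a8, a sulfotransferase, with a log2 level of 1.98, frozen heart was lowest at Inhbe, the activin E subunit, with 3.46, and FFPE heart was lowest at Mir744 with 0.46. Frozen heart was highest at C1qb, a complement gene of macrophages, with 2.82.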

How the results depend on the processing

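No count and no difference of a named gene that passed reversed under the alternatives run. At Nppb, which did not pass, the sign differed between frozen and FFPE tissue, as given above. The olfactory receptor median of -0.10 became 0.02 with quantile normalization and 0.11 with scaling to equal spread. The counts of higher and lower genes were 251 and 72 with the other organs taken as 1 group, 155 and 54 without the preservation term, and 0 and 0 in limma without the intensity trend, where 4715 genes had an unadjusted p under 0.05. With precision weights 695 genes were lower. Both counts of genes that differed from each organ were 0 without the trend and without the preservation term. The count lower than each organ was 53 with precision weights, 195 with quantile normalization and 148 with scaling to equal spread. Leaving out 1 library gave 184 to 2254 higher and 280 to 2578 lower genes, and 8 to 1023 higher and 2 to 944 lower than each organ. The lowest and highest counts of higher and lower genes came without frozen liver and without FFPE liver, where the lone liver library is assumed to vary like the other groups. The counts against each organ were lowest without frozen kidney. Counts also moved by over 1.5 times without frozen brain (838 higher, 597 lower), frozen heart (848 and 644), frozen kidney (827 and 672) and FFPE kidney (788 lower), and those against each organ without any library except FFPE brain for the higher genes. The cause of these changes was not tested. No paired analysis was possible because the columns carry no replicate numbers. The comparison of promoter features between sets was void at under 80% coverage, so its alternative was not run. Depth limits the lower genes with under 10 liver reads.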

Other observations

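Of 1008 X-linked genes tested, 8 were higher in liver (0.794%) and 53 were lower (5.26%), where 5.13% and 4.84% of all tested genes were. X-linked genes named above include Cldn2, which was higher, and Pcdh19, Zcchc18 and Tmem35a, which were lower.

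Genes that differed often lay side by side on a chromosome, as Rdh7 lies beside Rdh16f2 and Ugt2b1 beside Ugt2b35. Of 1291 higher genes with a mapped position, 36.0% had a higher gene as next neighbour on either side, where 9.95% of all mapped genes had one. Of 1182 lower genes with a position, 20.1% had a lower gene as next neighbour, where 9.37% of all mapped genes had one. Neighbours can share reads where they overlap, and the part of this in the shares was not tested.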
